A study of Mus musculus with 4 samples.

Results

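Peroxisomes are small organelles in which very long, branched and dicarboxylic fatty acids are shortened before mitochondria finish their oxidation. Transporters of the ABCD family bring acyl-CoA into the organelle, an acyl-CoA oxidase takes the first step and passes electrons to oxygen, a bifunctional enzyme takes the next steps and a thiolase cuts the chain, while catalase removes the hydrogen peroxide that the oxidase makes. Skeletal muscle has few peroxisomes compared with liver, and many of these genes are known targets of the fatty acid receptors PPARalpha and PPARgamma, which act with a retinoid X receptor as the vitamin D receptor does. The 8 genes described here were chosen by name: the catalase gene Cat, the ABCD transporters Abcd2 and Abcd3, the bifunctional enzymes Ehhadh and Hsd17b4, the thiolases Acaa1a and Scp2, and Pex11a, which takes part in peroxisome division. All 8 were found among the 55573 gene IDs of the files, and all 8 were among the 13076 genes with enough counts to be tested.

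RNA was sequenced from quadriceps, the large muscle of the thigh, of 7-week-old mice on regular chow that had been weaned at 21 days. WT mice were C57BL/6J, and knockout mice were of the strain B6.129S4-Vdrtm1Mbd/J, labelled vdr-/-, with a germline targeted allele of the vitamin D receptor gene. Vdr itself had 5 and 0 counts for WT against 5 and 1 for the knockout, too few to check the labels. Each group has 2 libraries, numbered 1 and 2, and no label ties them to separate animals, so p-values reflect the variation among these libraries alone, possibly technical. Total counts ran from 10789025 to 21336982 per library, of which 41.2% to 45.3% were the 2 mitochondrial ribosomal RNAs.

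Sex, which the labels do not give, differed between the groups as read from sex-linked genes. Xist, which coats the inactive X of female cells, had 1929 and 2778 counts in the WT libraries and 0 and 3 in the knockout libraries. On the Y chromosome, Kdm5d, Uty, Eif2s3y and Ddx3y together had 95 counts in WT replicate 1, 1 in WT replicate 2, and 2965 and 1383 in the knockout, so WT replicate 1 carried Y-linked counts that its partner did not. Genotype and sex cannot be told apart in any comparison below. Without WT replicate 1 all 8 genes stayed positive and 3 of them, Cat, Ehhadh and Scp2, were called. Muscle identity was clear, with the fast myosin gene Myh4 between 20825 and 23600 CPM, and none of 10 fibre-type markers was called by edgeR or DESeq2 or had an unadjusted p below 0.05 (0 of 10). Some of these markers differed widely between knockout replicates 1 and 2: Myh7 (28.3 and 7.25 CPM), Tnnt1 (13.7 and 5.54), Tnni1 (7.08 and 2.64) and Myh2 (370 and 171). Their standard errors on the log2 scale, from 0.44 for Myh2 to 0.87 for Myh7, were too large for the lack of a call to show equal fibre types.

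Catalase and the bifunctional enzyme Ehhadh were more than 2-fold higher in knockout muscle than in WT muscle, and Scp2 and Abcd2 were higher by about 1.5-fold to 1.6-fold. In all, 4 of the 8 genes were called higher and none lower, where a call is an adjusted p below 0.05 by the quasi-likelihood test of edgeR after Benjamini-Hochberg adjustment across all tested genes. Of all tested genes 1.61% were called higher and 0.413% lower, 2.03% in all. At an unadjusted p below 0.05, 6 of the 8 were higher, beside 8.08% of all tested genes. The median log2 fold change of the 8 genes was 0.66, beside -0.0007 over all tested genes, and all 8 were positive, as were 49.9% of all tested genes. In 7 of the 8 both knockout libraries lay above both WT libraries, a pattern seen in 23.0% of all tested genes, while 21.7% had both knockout libraries below WT and 44.7% did not overlap in either direction. The genes did not move by one amount: fitted log2 fold changes ran from 0.16 for Acaa1a to 1.41 for Ehhadh.

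**Figure D1:**
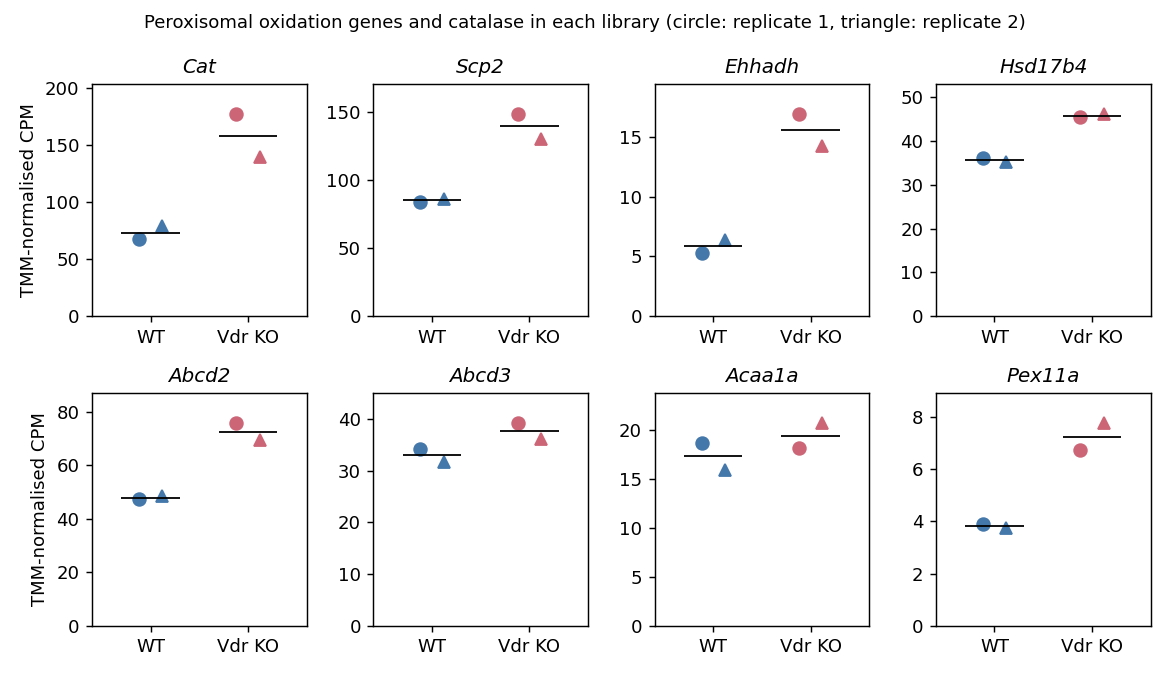
TMM-normalised CPM of the 8 genes in each library, WT in blue and Vdr knockout in red, with circles for replicate 1, triangles for replicate 2 and a bar at each group mean; each panel has its own vertical axis from 0. The groups overlap only for Acaa1a, and the widest gaps relative to the WT level are those of Ehhadh and Cat.

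Cat encodes catalase, a tetrameric haem enzyme of the peroxisome that splits hydrogen peroxide into water and oxygen (ENSMUSG00000027187, protein-coding, chromosome 2, 103453849 to 103485160, minus strand, GRCm38). Its level was 67.7 and 78.9 CPM (counts scaled to a common library size, TMM-normalised) in WT replicates 1 and 2, and 177 and 139 CPM in knockout replicates 1 and 2. Both knockout libraries were above both WT libraries, and knockout replicate 1 was the highest of the 4. The group means were 73.3 ± 7.94 and 158 ± 26.9 CPM (SD, n = 2 each). This is a fitted 2.16-fold difference with a 95% interval of 1.71 to 2.72 (edgeR adjusted p = 0.00426). Leaving out any 1 library kept the catalase call, with log2 fold changes between 0.92 and 1.27 and a value of 1.01 without WT replicate 1.

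Ehhadh, the L-bifunctional enzyme that hydrates and dehydrogenates straight-chain and dicarboxylic acyl-CoA, showed the largest relative difference of the 8 (ENSMUSG00000022853, chromosome 16, 21761287 to 21787807, minus strand). The WT libraries held 5.31 and 6.40 CPM, from 56 and 82 counts, and the knockout libraries 16.9 and 14.2 CPM, from 356 and 167 counts. The groups did not overlap, and as for Cat the order of the 4 libraries was WT replicate 1, WT replicate 2, knockout replicate 2, knockout replicate 1. The fitted difference was 2.66-fold with a 95% interval of 2.00 to 3.53 (edgeR adjusted p = 0.00351). It kept its call without each library in turn, with log2 fold changes from 1.27 to 1.56 and 1.29 without WT replicate 1.

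Hsd17b4 encodes the D-bifunctional enzyme, which does the same steps with the opposite stereochemistry and serves very long and branched chains (ENSMUSG00000024507, chromosome 18, 50128201 to 50196269, plus strand). Its values were 36.1 and 35.2 CPM for WT against 45.3 and 46.1 CPM for the knockout, tight within each group and without overlap. The difference was smaller, at 1.28-fold with a 95% interval of 1.07 to 1.54, and did not pass the adjusted test (edgeR adjusted p = 0.199). Dropping WT replicate 1 gave a log2 fold change of 0.38. Per kb of exon, Hsd17b4 was the more abundant of the 2 bifunctional enzymes in every library. The ratio of Hsd17b4 to Ehhadh per kb was 5.96 and 4.82 in the WT libraries and 2.35 and 2.84 in the knockout libraries, so the gap between the enzymes was narrower in both knockout libraries, a difference that was not tested.

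Of the thiolases, Scp2 was called and Acaa1a was not, and the difference between them was not tested. Scp2 yields from 1 gene both a thiolase for branched chains and the small lipid carrier sterol carrier protein 2, which gene counts cannot separate (ENSMUSG00000028603, chromosome 4, 108043839 to 108144998, minus strand). It stood at 83.6 and 86.4 CPM for WT against 148 and 130.4 CPM for the knockout, without overlap. That is a 1.64-fold difference with a 95% interval of 1.35 to 1.99 (edgeR adjusted p = 0.0171), which was called without WT replicate 1 (log2 fold change 0.69) and not called without knockout replicate 1 (0.61, adjusted p = 0.091). Of the 50-base stretches in its transcripts, 29.7% also occur in other genes, most of all the pseudogene Scp2-ps2, which had at most 15 counts in any library.

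Acaa1a, the main thiolase for straight chains, was the 1 gene of the 8 whose groups overlapped (ENSMUSG00000036138, chromosome 9, 119339676 to 119350299, plus strand). Its values were 18.7 and 15.9 CPM for WT against 18.2 and 20.6 CPM for the knockout. The fitted difference was 1.12-fold with a 95% interval of 0.887 to 1.42 (edgeR adjusted p = 0.713), and dropping WT replicate 1 gave a log2 fold change of 0.28. Its near-copy Acaa1b, with 11 and 27 counts for WT against 103 and 28 for the knockout, shares 30.5% of its 50-base stretches with other genes, mainly Acaa1a. Acaa1b had a log2 fold change of 1.24 ± 0.43 (SE) and did not pass (edgeR adjusted p = 0.212). Counts of both thiolase copies are uncertain, since no source used here states how reads that fit several places were handled.

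Abcd2 and Abcd3 encode half-transporters of the peroxisomal membrane, the first for very long and polyunsaturated acyl-CoA and the second also for branched and dicarboxylic chains. Abcd2 (ENSMUSG00000055782, chromosome 15, 91145871 to 91191799, minus strand) was at 47.6 and 48.4 CPM for WT against 75.8 and 69.6 CPM for the knockout. Its libraries fell into 2 separate pairs, 1.52-fold apart with a 95% interval of 1.26 to 1.83 (edgeR adjusted p = 0.0336). The call was lost when any 1 library was left out, with log2 fold changes from 0.53 to 0.66 and adjusted p from 0.0558 to 0.151. Abcd3 (ENSMUSG00000028127, chromosome 3, 121758774 to 121815302, minus strand) had 34.2 and 31.8 CPM for WT against 39.2 and 36.1 CPM for the knockout. These values did not overlap but lay close, 1.14-fold apart with a 95% interval of 0.939 to 1.39 (edgeR adjusted p = 0.563). Per kb, Abcd2 was the more abundant of the pair in every library, 1.54 and 1.69 times Abcd3 in the WT libraries and 2.15 and 2.14 times in the knockout libraries.

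Pex11a, which elongates the peroxisomal membrane when peroxisomes multiply, was the least abundant of the 8 (ENSMUSG00000030545, chromosome 7, 79735957 to 79743131, minus strand). It had 41 and 48 counts for WT against 142 and 91 for the knockout, or 3.89 and 3.75 against 6.75 and 7.76 CPM. The groups did not overlap, and the fitted difference of 1.89-fold had a 95% interval of 1.36 to 2.63, yet it missed the threshold (edgeR adjusted p = 0.0624). Dropping WT replicate 1 gave 0.94 on the log2 scale. At this depth its standard error of 0.21 on the log2 scale was the largest of the 8.

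**Figure D2:**
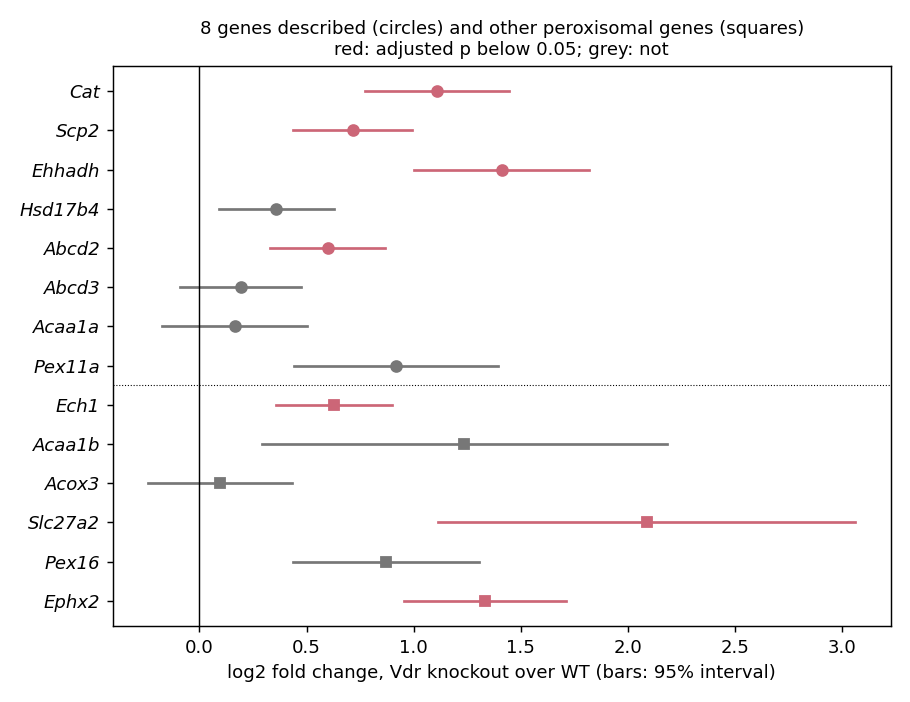
Log2 fold changes of knockout over WT with 95% intervals for the 8 genes (circles) and for related peroxisomal genes (squares), red where the adjusted p was below 0.05. Among those plotted, the intervals of Abcd3, Acaa1a and Acox3 include 0, and Slc27a2 has the widest interval of the called genes.

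By level per kb of exon, averaged over the 4 libraries, Cat came first (44.3 CPM per kb), then Scp2 (32.3), Hsd17b4 (11.95), Abcd2 (10.1), Abcd3 (5.35), Acaa1a (4.16), Ehhadh (3.59) and Pex11a (1.74). In WT no neighbours in this order overlapped. In the knockout Ehhadh, at 5.23 ± 0.636 CPM per kb, stood above Acaa1a, at 4.39 ± 0.397, in both libraries and without overlap. In WT Ehhadh was lower, 1.96 ± 0.259 against 3.92 ± 0.441. This swap depends on the exon lengths used, 4414 bases for Acaa1a and 2981 for Ehhadh, each the union of all annotated exons. Before division by length, Acaa1a was above Ehhadh in both knockout libraries too, at 18.2 and 20.6 against 16.9 and 14.2 CPM. Cat exceeded Scp2 by little in WT, with ratios of 1.08 and 1.22, and by more in the knockout, with 1.59 and 1.42.

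**Figure D3:**
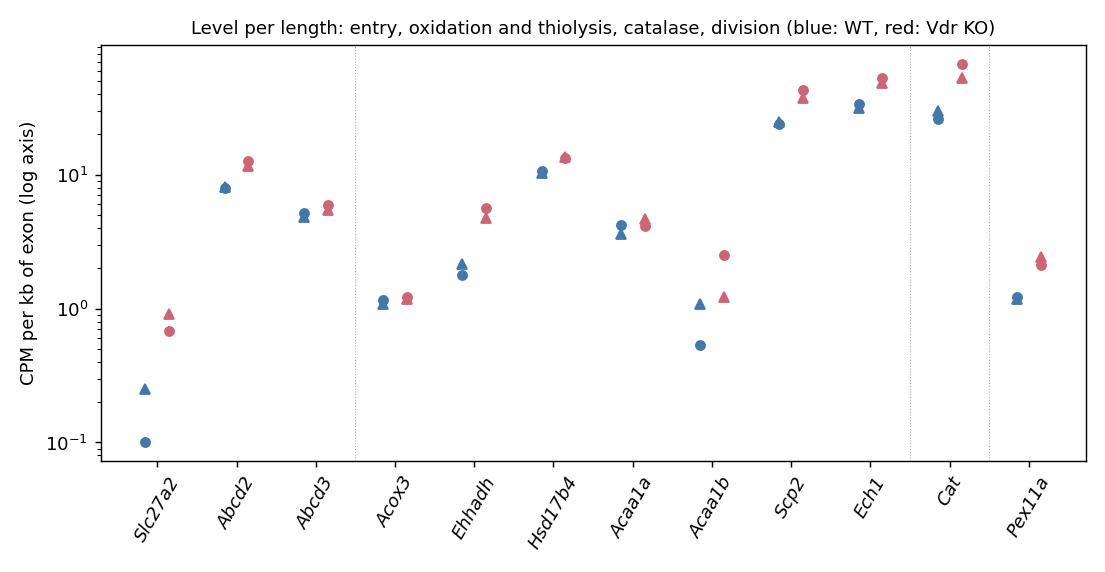
Level per kb of exon, on a log axis, of genes for entry of fatty acids, for oxidation and thiolysis, for catalase and for peroxisome division, WT in blue and Vdr knockout in red with circles for replicate 1 and triangles for replicate 2. Cat reaches the highest values and Slc27a2 the lowest. Ehhadh lies below Acaa1a in WT and above it in the knockout on this scale, while in CPM not divided by length Acaa1a is higher in every library.

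The RefSeq promoter table for GRCm38.p6, which gives 250 bases before and 50 after a gene's start, held entries for 6 of the 8 genes. Cat, Ehhadh and Scp2, the 3 called genes with an entry, had the same order of the 4 libraries, an order held by 6.60% of all tested genes. The uncalled Abcd3 and Pex11a also had entries and were searched but are not printed. Shown are the 3 called genes and, for contrast, the uncalled Acaa1a, which had the smallest difference of the 8. Each is written 5′ to 3′ on the gene's strand, with capitals marking exact matches on either strand to the nuclear receptor half-site AGGTCA, to CCAAT and to the GC box GGGCGG. They lie at chr2:103485104-103485403 (Cat, minus strand), chr16:21787785-21788084 (Ehhadh, minus strand), chr4:108118498-108118797 (Scp2, minus strand, inside the gene as GENCODE draws it) and chr9:119341044-119341343 (Acaa1a, plus strand, likewise inside the gene).
Cat: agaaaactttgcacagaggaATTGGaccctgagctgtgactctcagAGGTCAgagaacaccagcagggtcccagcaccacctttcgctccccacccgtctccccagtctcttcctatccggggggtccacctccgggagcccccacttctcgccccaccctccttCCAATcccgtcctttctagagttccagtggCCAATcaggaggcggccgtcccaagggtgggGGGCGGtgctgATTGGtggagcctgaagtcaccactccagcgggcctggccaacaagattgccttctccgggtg
Ehhadh: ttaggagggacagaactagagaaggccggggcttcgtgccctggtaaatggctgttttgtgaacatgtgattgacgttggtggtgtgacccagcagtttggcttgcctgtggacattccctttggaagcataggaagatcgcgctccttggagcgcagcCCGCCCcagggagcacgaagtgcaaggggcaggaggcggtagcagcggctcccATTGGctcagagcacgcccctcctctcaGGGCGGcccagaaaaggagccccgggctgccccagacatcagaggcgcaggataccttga
Scp2: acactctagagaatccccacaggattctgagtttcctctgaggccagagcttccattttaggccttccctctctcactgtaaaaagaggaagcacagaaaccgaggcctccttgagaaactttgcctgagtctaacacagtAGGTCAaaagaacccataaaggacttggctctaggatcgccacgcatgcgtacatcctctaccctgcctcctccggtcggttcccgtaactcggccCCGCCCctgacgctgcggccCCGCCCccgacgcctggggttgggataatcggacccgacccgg
Acaa1a: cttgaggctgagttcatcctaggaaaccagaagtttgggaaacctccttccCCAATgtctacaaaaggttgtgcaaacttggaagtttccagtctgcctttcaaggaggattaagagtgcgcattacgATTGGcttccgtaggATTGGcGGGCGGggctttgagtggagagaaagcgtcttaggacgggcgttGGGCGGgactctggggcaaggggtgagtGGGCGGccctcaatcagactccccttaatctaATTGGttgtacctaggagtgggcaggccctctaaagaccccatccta

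The half-site AGGTCA was found in the Cat window, starting 204 bases before the start, and in the Scp2 window, starting 109 bases before it, and 16.3% of all 32851 promoters in the table hold one. The direct repeat with a 1-base spacer, AGGTCANAGGTCA, which PPAR and retinoid X receptor pairs are known to bind, had no exact match in the 6 genes, as in all but 0.0396% of promoters. With up to 2 mismatches in its 12 fixed letters it matched only in Cat, where it begins with the same half-site, and 3.86% of all promoters have such a match. The repeat with a 3-base spacer known for the vitamin D receptor, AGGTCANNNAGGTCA, had no match in the 6 genes with up to 2 mismatches, against 3.06% of all promoters. CCAAT was present in Cat, Ehhadh and Acaa1a (37.4% of all promoters) and the GC box in 5 of the 6 genes, Abcd3 excepted (35.7%). These windows are short and a match is a description of letters.

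Other genes of the peroxisome were taken from 5 lists with 62 genes, of which 52 were tested. Calls numbered 3 upward and 0 downward (1.61% and 0.413% of all tested genes), 40 were positive (49.9% of all tested genes), and the median log2 fold change was 0.30. The called genes belong to 3 of the lists. Ephx2, an epoxide hydrolase partly held in peroxisomes, had 17.3 and 25.1 CPM for WT against 55.3 and 51.9 CPM for the knockout, a 2.52-fold difference (95% interval 1.94 to 3.27, edgeR adjusted p = 0.00319), and was called without each library in turn. Slc27a2, a very long-chain acyl-CoA synthetase that is mainly known from liver and kidney, had 4 and 12 counts for WT against 54 and 40 for the knockout. Its fitted difference of 4.25-fold has a wide 95% interval of 2.17 to 8.35 (edgeR adjusted p = 0.0395), and it lost its call when WT replicate 1 (log2 fold change 1.64) or either knockout library (2.30 without the first, 1.90 without the second) was left out. DESeq2 gave it no adjusted p.

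Among 8 tested peroxisomal beta-oxidation enzymes outside the 8 genes, 1 was called, 7 were positive and the median was 0.36. Ech1, a dienoyl-CoA isomerase found in peroxisomes and mitochondria, stood at 77.5 and 72.1 CPM for WT against 120.1 and 111 CPM for the knockout (1.55-fold, 95% interval 1.28 to 1.86, edgeR adjusted p = 0.0289). It was no longer called with WT replicate 2 or either knockout library left out (log2 fold changes 0.57, 0.57 and 0.69). Acox3, an oxidase for branched chains, differed by 1.07-fold with a 95% interval of 0.847 to 1.35 (edgeR adjusted p = 0.85).

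Of 13 tested genes for transport, activation and export, Slc27a2 was the only one called and the median was 0.29. Crat, which makes acylcarnitines that can leave the organelle, was at 137 ± 1.79 CPM in WT and 178 ± 4.47 CPM in the knockout (log2 fold change 0.38 ± 0.12, edgeR adjusted p = 0.165). None of 20 peroxins and membrane proteins was called, 14 were positive and the median was 0.23. Pex16, which helps build the peroxisomal membrane, came nearest with 8.62 and 9.36 CPM for WT against 13.7 and 19.5 CPM for the knockout (log2 fold change 0.87 ± 0.20, edgeR adjusted p = 0.0545), and Pex6, an ATPase that recycles the import receptor, followed (0.48 ± 0.17, adjusted p = 0.235). By edgeR, 8 of the 20 had an unadjusted p below 0.05, all upward, beside 8.08% of all tested genes, and DESeq2 called none of the 20.

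Genes of alpha-oxidation and ether lipid synthesis had no call among 4 tested and a median of 0.09. Phyh, which starts the breakdown of phytanic acid, was at 53.3 ± 7.00 CPM in WT and 70.9 ± 8.53 CPM in the knockout (log2 fold change 0.41 ± 0.14, edgeR adjusted p = 0.211). Gnpat, the first enzyme of ether lipids, had a log2 fold change of 0.11 ± 0.13 (edgeR adjusted p = 0.799). By edgeR, 1 of the 4 had an unadjusted p below 0.05, and DESeq2 called none. Of 12 oxidases and other matrix enzymes 7 were tested, all 7 were positive, and Ephx2 was the 1 call. Next came Idh1, which supplies NADPH in the cytosol and peroxisome (0.53 ± 0.15, edgeR adjusted p = 0.127). The liver and kidney oxidases Hao1, Hao2 and Dao had 0 counts in all 4 libraries, where 3 counts would stand for 0.142 to 0.284 CPM.

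**Figure D4:**
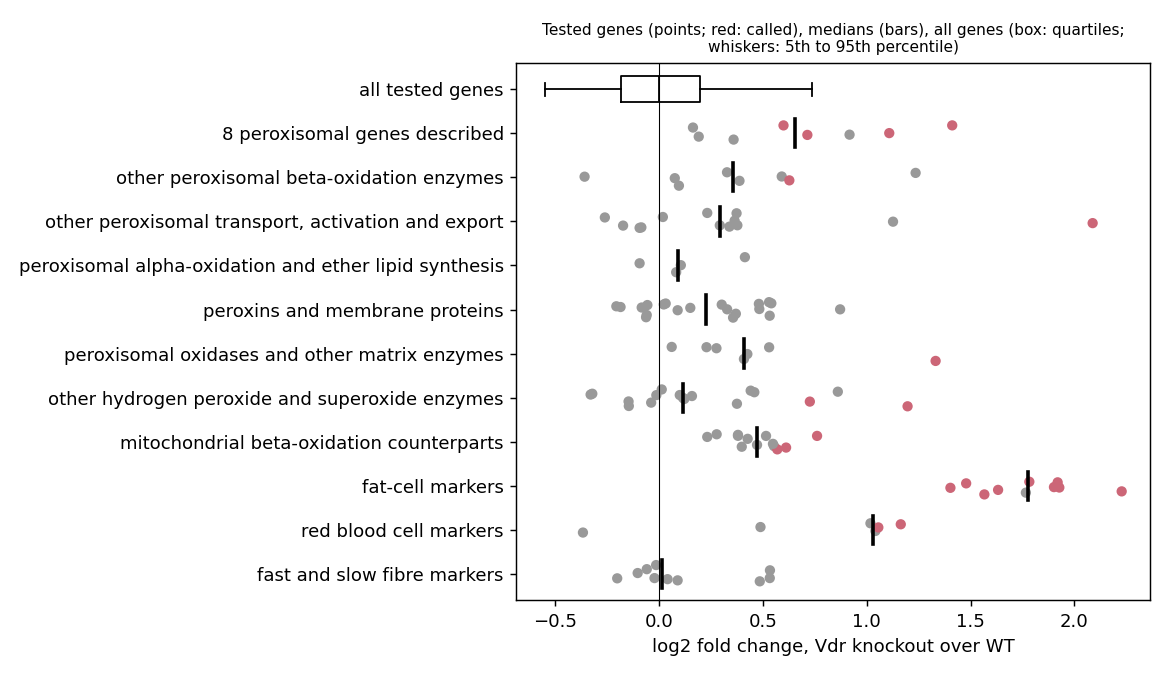
Log2 fold changes of the tested genes in each list (points, red where called) with list medians (bars), and of all tested genes (box with quartiles and whiskers from the 5th to the 95th percentile). The 8 genes have a median of 0.66, mitochondrial beta-oxidation genes 0.47 and fat-cell markers 1.77, while all genes centre on -0.0007.

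Catalase can be set beside other enzymes that remove peroxide or superoxide. Calls were 2 of 17, both upward (1.61% of all tested genes were called higher), with a median of 0.12. These were Gpx3, the secreted glutathione peroxidase, at 55.1 ± 12.9 CPM in WT and 126 ± 24.7 CPM in the knockout (1.20 ± 0.19, edgeR adjusted p = 0.0135), and Gpx1, the cytosolic form, at 46.0 ± 5.56 and 76.1 ± 13.8 CPM (0.73 ± 0.15, adjusted p = 0.0412). The peroxisomal and mitochondrial peroxiredoxin Prdx5 had a log2 fold change of 0.06 ± 0.12. Per kb, catalase stood at 0.285 and 0.344 times the membrane lipid peroxidase Gpx4 in WT and at 0.719 and 0.547 times in the knockout.

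In the mitochondrial route, of 13 tested mitochondrial beta-oxidation genes 3 were called higher, all 13 were positive and above WT without overlap, and the median was 0.47. Over all tested genes 1.61% were called higher, 49.9% were positive and 23.0% were above WT without overlap. The called genes were the carnitine carrier Slc25a20 (0.76 ± 0.13), the thiolase Acaa2 (0.61 ± 0.13) and Hadh (0.57 ± 0.12), with edgeR adjusted p from 0.014 to 0.0448. Hadha, the mitochondrial counterpart of the bifunctional enzymes, was 7.13 and 6.54 times as abundant per kb as Ehhadh in WT and 3.25 and 3.51 times in the knockout. Cpt1b, the muscle carnitine palmitoyltransferase, had at most 14 counts in a library and was not tested, and 81.4% of its exon bases are shared with a gene model on its own strand.

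None of 11 PPAR receptors and partners was called by edgeR, while DESeq2 called 1, Pparg. Of the 11, 3 had an unadjusted p below 0.05 upward and 1 downward by edgeR, and the median log2 fold change was 0.07. Over all 13076 tested genes, 1057 (8.08%) were upward and 772 downward at that threshold. Pparg, the fat-cell form, had 6.06 and 11.9 CPM for WT against 24.0 and 20.5 CPM for the knockout (log2 fold change 1.29, edgeR adjusted p = 0.0879). Ppara stood at 5.50 and 7.10 CPM for WT against 9.22 and 8.70 CPM for the knockout (adjusted p = 0.277). The corepressor Nrip1 had a log2 fold change of -0.46 (adjusted p = 0.115).

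The summed fat-cell and red blood cell markers were higher in both knockout libraries, as were the 4 called genes. More cells of a type and more RNA per cell cannot be told apart in bulk muscle. All 10 fat-cell markers were above WT in both knockout libraries (23.0% of all tested genes) and 9 were called higher (1.61% of all tested genes). Their summed level was 1060 and 1260 CPM for WT against 4435 and 3997 CPM for the knockout. Among them the adipokine gene Adipoq had 70.2 and 88.4 CPM for WT against 301 and 299.6 CPM for the knockout. Fat cells are known to express Cat and Abcd2. Red blood cell markers, of which 2 of 6 tested were called, summed to 244 and 268 CPM for WT against 552 and 391 CPM for the knockout. Red cells are rich in catalase protein, and their Cat RNA was not measured here. Of the defining red cell markers, Epb42 had 0 counts in all but knockout replicate 1, which had 4, and Slc4a1 had 0 and 2 counts for WT against 36 and 9 for the knockout. Macrophage markers had no call among 8 tested by edgeR or DESeq2, with 2 at an unadjusted p below 0.05 by edgeR, and summed to 220.2 and 256.2 CPM for WT against 271 and 292 CPM for the knockout. Neutrophil markers summed to 0.663 and 1.25 CPM in WT, to 31.6 CPM in knockout replicate 1 and to 3.07 CPM in knockout replicate 2. Brown-fat markers differed among themselves: of 5 tested, 1 lay above WT without overlap and 1 below. Ucp1 was highest in WT replicate 2, at 34.0 CPM against 1.52 CPM in WT replicate 1 and 12.1 and 14.6 CPM in the knockout. Cidea, the one above, had 3.32 and 15.6 CPM for WT against 34.9 and 32.1 CPM for the knockout (edgeR adjusted p = 0.56).

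The 4 libraries had the same order for Cat, Ehhadh, Abcd2 and Scp2 as for the sum of the fat-cell markers and for that of the red cell markers. The same order held for 6.60% of all tested genes, for 34.1% of the 211 genes called higher and for 7 of the 13 mitochondrial genes. The 4 uncalled genes, Hsd17b4, Abcd3, Acaa1a and Pex11a, had other orders. Of the fat-cell markers themselves, Adipoq, Cfd, Cidec and Retn had the order of their sum. Plin1, Lep, Fabp4, Acvr1c and Pck1 were instead highest in knockout replicate 2, and Adig was lowest in WT replicate 2. Cfd was the largest part of the sum in the knockout, at 2142 CPM in replicate 1 and 1607 CPM in replicate 2, and the order of the sum rested on it. The part of fat cells, blood or sex in the differences of the 8 genes was not tested, since each separates the same libraries as genotype does.

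**Figure D5:**
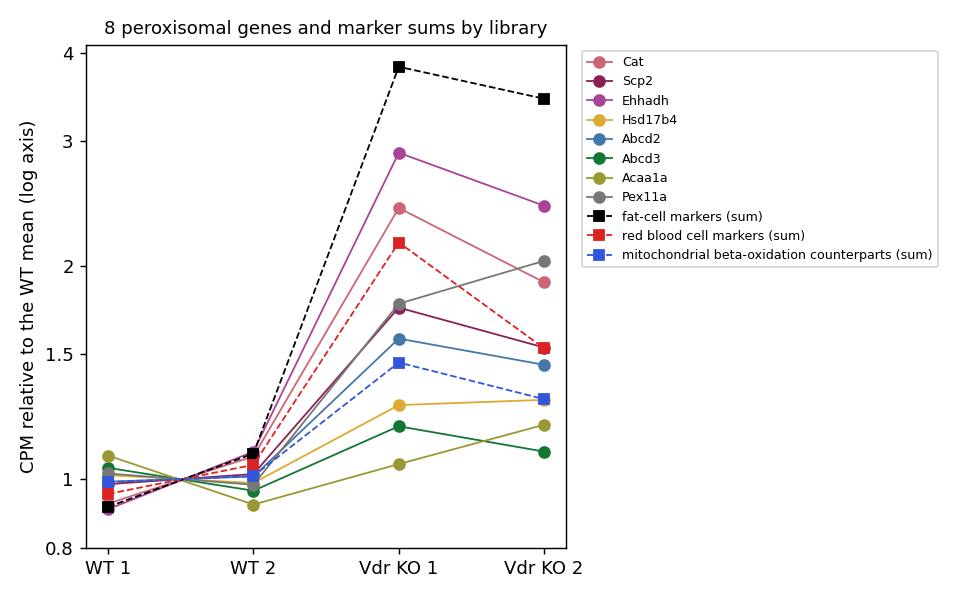
CPM of each of the 8 genes and of 3 summed lists in each library relative to the WT mean, on a log axis, with lines joining the values of 1 gene or list. In the knockout libraries the fat-cell sum lies highest, Ehhadh and Cat lie between it and the mitochondrial sum, and Acaa1a and Abcd3 lie nearest to 1.

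The tested protein-coding genes with the profile most like that of Ehhadh, the gene of the 8 with the smallest p, were Uck1, Nlrc5, Sfxn1, Pde1b and Slc27a1. Likeness was the Euclidean distance of log2 CPM over the 4 libraries after centring each gene on its mean, and it ran from 0.041 for Uck1 to 0.146 for Slc27a1. Uck1, a uridine-cytidine kinase, was at 8.80 CPM on average in WT and 23.2 CPM in the knockout, and the fatty acid transporter Slc27a1 at 56.0 and 137 CPM.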

How the data were processed

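Per the submitters' processing notes, the authors used Trimmomatic, STAR and DESeq2 with genome build GRCm38 (mm10). No source used here states their versions, roles or parameters, or the annotation. The deposited files hold raw counts per Ensembl gene, 1 column of counts per library, and their totals (10789025, 13031553, 21336982 and 11206474) set the precision. The median standard error of a log2 fold change was 0.192 over all tested genes. Of 55573 IDs, 55480 matched GENCODE M21, from which symbols, coordinates and exon lengths were taken. An exon length is the union of all annotated exons of a gene, so comparisons of different genes per kb depend on the annotation. Labels gave the groups.

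Genes were kept with filterByExpr of edgeR 4.0.16 (minimum count 10, minimum total 15), scaled by TMM and tested by its quasi-likelihood F test (robust, not the legacy fit) with genotype as the only term in R 4.3.3, with Benjamini-Hochberg adjustment over all 13076 genes. Intervals are at 95% and cover the fitted spread. DESeq2 1.42.0, other scalings, no filter, a replicate block and leaving out each library were alternatives. Replicates differed by more than sampling noise (chi-square per gene 8.04 in WT and 12.5 in the knockout), so none was merged.

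The members, lists and rules were chosen with earlier results of these data known. Named genes are the 8 genes, Acaa1b as a near-copy, and in each pathway list the called genes and the 2 with the smallest p; genes named beyond that (Acox3, Ppara, Prdx5, Gpx4, Hadha, Cpt1b) were chosen after their values were seen. Endothelial, fibroblast and brown-fat markers had no call among 6, 5 and 5 tested by edgeR or DESeq2, with 1, 2 and 0 at an unadjusted p below 0.05 by edgeR. Protein sequences were not used here. Some results that the rule would name are not reported here.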

Additional observations from a re-analysis of the deposited data

How the results depend on the processing

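All 8 genes were positive in every alternative run, and Cat and Ehhadh were called in each. With no filter on low counts 476 genes were called in all, 5 of the 8 (Pex11a added) and 5 of the other peroxisomal genes, while the legacy quasi-likelihood fit, chosen after seeing the data, also called 5 of the latter. Leaving out 1 library at a time gave 216 to 332 calls in all, 2 to 3 of the 8 and 2 to 3 of the other peroxisomal genes. These fits leave 1 group with a single library, which is assumed to vary like the other group. Replicate numbers did not pair the libraries (r = 0.0522 over 6282 genes, across genes), and with the number as a replicate block 346 genes were called, among them 4 of the 8 and 4 of the other peroxisomal genes. Without scaling beyond library size the split of calls was 236 higher and 35 lower, beside 211 and 54. The intervals of Abcd3 (0.939-fold to 1.39-fold) and Acaa1a (0.887-fold to 1.42-fold) included no difference.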
